A study of Mus musculus with 21 samples.

Results

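Primitive endoderm is the extraembryonic layer that separates from the epiblast inside the blastocyst, and 10 genes of this lineage and of the FGF signal that directs it were followed from the gamete to the blastocyst in mouse. The genes were chosen by name: the primitive endoderm genes Gata6, Gata4, Sox17, Pdgfra, Dab2, Sparc and Col4a1, and the signaling genes Fgf4, Fgfr1 and Fgfr2. A deposited transcript was counted to a gene when its exons overlapped exons of that gene on the same strand in GENCODE vM21. Of the 10 genes, 8 had a deposited transcript, with 16 transcripts in all, out of 14888 genes and unassigned loci with 22612 transcripts in the whole series. Pdgfra, the PDGF receptor alpha that marks primitive endoderm, and Fgf4, the ligand that the epiblast secretes, had none and were not measured.

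The series held 14 short-read libraries, 2 a stage for sperm, the oocyte, the cleavage stages 1-cell, 2-cell, 4-cell and 8-cell, and the blastocyst. There were also 7 long-read pools, 1 a stage. Sperm came from the epididymis of males given as DBA/2J in the titles and as DBA/2N in the protocol. Oocytes came from C57/BL6J females of 3 to 5 weeks given 7.5 IU of PMSG and, 48 h later, 7.5 IU of hCG, and were taken at 20 h after hCG. Embryos of these females and males were cultured in KSOM and lysed at 24 to 26 h (1-cell), 46 to 48 h (2-cell), 54 to 58 h (4-cell), 68 to 70 h (8-cell) and 94 to 96 h (blastocyst) after hCG. The embryo libraries were made from whole embryos, so a blastocyst value mixes trophectoderm, epiblast and primitive endoderm, and fewer cells of a type and less RNA per cell cannot be told apart. By the study's methods the libraries of a stage came from separately collected batches of pooled embryos, and the long-read pool mixed cDNA of both. The p-values measure the spread between 2 such pools a stage.

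In the blastocyst, epiblast cells release FGF4, which binds the receptor tyrosine kinases FGFR1 and FGFR2 on inner cell mass cells. The receptors act through RAS, MEK and ERK, and cells with a strong signal keep the transcription factor GATA6 and lose NANOG. These cells then turn on SOX17, GATA4 and PDGFRA, sort to the surface of the inner cell mass, take up ligands with the endocytic adaptor DAB2, and lay down a basement membrane of laminins, collagen IV and SPARC.

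Most of the transcripts were pieces of the annotated mRNAs, and the levels below are levels of these pieces. Long reads of a gene came from some pools only. They came from 8-cell and blastocyst for Gata6, 2-cell and 4-cell for Gata4, blastocyst for Sox17, and 8-cell for Col4a1 and Fgfr1. For Sparc they came from blastocyst and sperm, and for Dab2 and Fgfr2 from 1-cell, 8-cell and blastocyst. Several genes were thus measured on transcripts from the stages where they were high, and the effect was not tested. The Gata6 transcript (ENSMUSG00000005836.10, chromosome 18) reached exons 2 to 7 of 7 and held 38.9% of the coding bases. It began at base 1391 of the annotated mRNA, whose coding part starts at base 312. The Gata4 transcript (ENSMUSG00000021944.15) lay at chr14:63198916-63203708 on the minus strand, began inside exon 4 of 7 and held 35.2% of the coding bases. The Sox17 transcript (ENSMUSG00000025902.13, chr1:4490934-4491713, minus strand) was a single exon of 780 bases in the 3′ UTR and held no coding base.

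The Col4a1 transcript (ENSMUSG00000031502.11, chr8:11199513-11211818, minus strand) reached exons 44 to 52 of 52, which encode the end of the triple helix and the C-terminal domain. The Fgfr1 transcript (ENSMUSG00000031565.18, chr8:25569742-25574782, plus strand) reached exons 11 to 18 of 18, which encode most of the intracellular kinase. Sparc (ENSMUSG00000018593.13, chr11:55394500-55423183, minus strand) had 2 transcripts that together covered 99.1% of its coding bases. Dab2 (ENSMUSG00000022150.16, chr15:6299788-6440712, plus strand) had 6 transcripts that together covered all 2298 coding bases. Coordinates are those of mm10.

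Fgfr2 (ENSMUSG00000030849.18, chromosome 7, minus strand) had 3 transcripts. TCONS_00019284 held the first 4 exons of 18, TCONS_00019285 was a 2-exon piece with an intron that the annotation lacks (chr7:130262067-130262211), and TCONS_00019283 was a single exon of 1120 bases inside a 3′ exon of Fgfr2-211, outside the coding bases of the longest annotated mRNA. The IIIb and IIIc exons, which set which FGFs the receptor binds, lay in none of the 3, so these isoforms could not be told apart. On the annotated mRNA TCONS_00019285 (bases 399 to 711) lay within TCONS_00019284 (bases 1 to 1061), and TCONS_00019283 lay apart, so the gene level of Fgfr2 adds an overlapping pair at the 5′ end and a separate piece at the 3′ end.

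**Figure D1:**
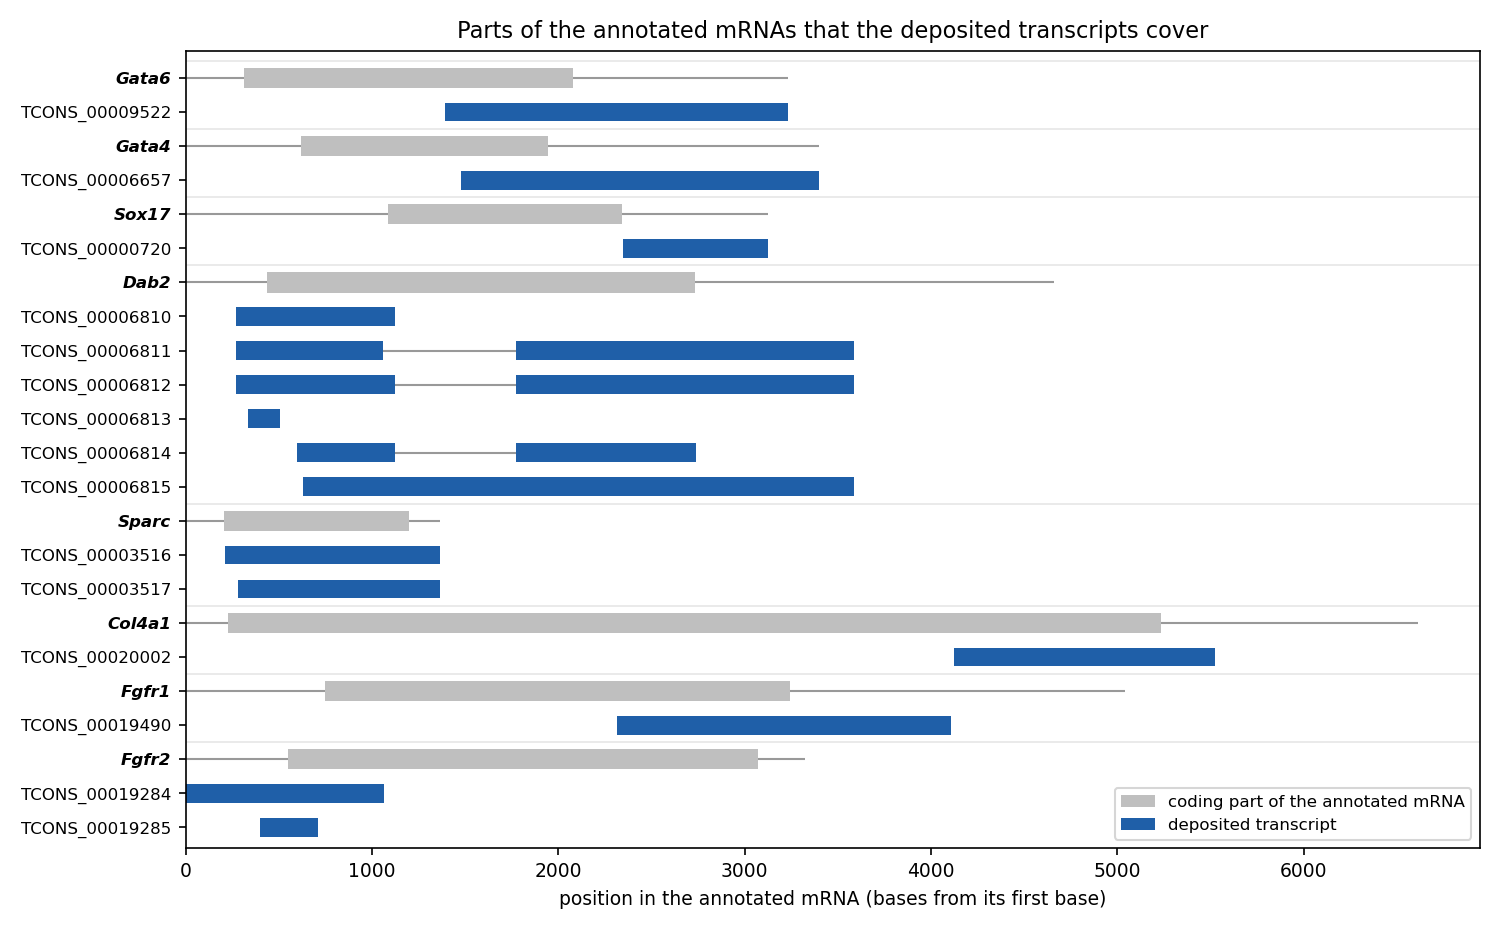
The x axis gives the position in the annotated mRNA with the longest coding sequence of each gene, in bases from its first base. Grey boxes are the coding part, thin lines the rest of the mRNA or a skipped stretch, and blue boxes the bases that each deposited transcript covers. The Sox17 transcript lies beyond the coding part, the Gata6, Gata4, Col4a1 and Fgfr1 transcripts cover 22.2% to 38.9% of it, and TCONS_00019283 of Fgfr2 is left out because it shares no base with this mRNA.

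The sequences below are those the isoform results turn on. Dab2 exon 10 (chr15:6429296-6429949) is a coding exon of 654 bases, or 218 codons. Among the deposited transcripts TCONS_00006815 held it, TCONS_00006811, TCONS_00006812 and TCONS_00006814 skipped it, and TCONS_00006810 and TCONS_00006813 ended before it. The long and the short forms that this exon separates are known as p96 and p67. The junctions are from GENCODE vM21, 15 bases on each side, with bases of the long exon in capitals.
Dab2 exon 9 to exon 10: ctaaatagtccaacaGAAAGCAAAGATATC
Dab2 exon 10 to exon 11: AGAAGGACTGCTAAGtcttcagcaaacgac
Dab2 exon 9 to exon 11: ctaaatagtccaacatcttcagcaaacgac

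Exon 9 of Dab2 (chr15:6424635-6424697), 63 bases or 21 codons, was skipped together with exon 10 in TCONS_00006811. It is shown in capitals between 15 bases of its neighbours in Dab2-203, followed by the junction that forms without it in Dab2-211.
Dab2-203, exon 9: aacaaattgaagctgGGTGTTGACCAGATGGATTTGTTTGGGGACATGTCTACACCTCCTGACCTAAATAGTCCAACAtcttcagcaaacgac
Dab2-211, exon 8 to exon 11: aacaaattgaagctgtcttcagcaaacgac

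The Gata4 level rests on where its transcript begins. Capitals mark its first 30 bases and lower case the 30 bases before them in the same exon (chr14:63203679-63203738, minus strand), a coding stretch of the C-terminal zinc finger.
Gata4 exon 4: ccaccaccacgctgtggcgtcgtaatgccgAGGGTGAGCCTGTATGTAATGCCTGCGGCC

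Gata6, the transcription factor that the lineage needs from the start, was nearly absent from the first stages and rose steeply from the 4-cell stage. It stood at 0.398 and 0.423 TPM (a transcript's share of the library, corrected for its length) in the oocyte libraries, at 0.472 and 0.0604 in 1-cell and at 0.214 and 3.33 in 2-cell. It then reached 18.1 and 14.8 TPM in 4-cell, 83.0 and 56.6 in 8-cell, and 54.2 and 43.2 in blastocyst. Every library from 4-cell on was above every earlier one, and the 8-cell libraries were above the blastocyst libraries. Gene levels were compared between consecutive stages with limma, fitted to log2(TPM + 1) of all 12 oocyte and embryo libraries, adjusted by Benjamini-Hochberg over the 13466 genes tested and called at an adjusted p under 0.05. From 2-cell to 4-cell Gata6 rose by 2.92 ± 0.72 (log2 change ± SE, limma adjusted p = 0.0497), close to the threshold. Leaving out any library but 2-cell replicate 2 ended this call, with adjusted p up to 0.358. The 2-cell libraries differed more from each other than those of any other stage, and with the spread weighted by stage the adjusted p was 0.216. The change from 4-cell to 8-cell was 2.00 ± 0.72 on the log2 scale with an adjusted p of 0.17, and higher in 4 of 4 pairs of libraries. Over the wider step from oocyte to 8-cell the difference was 5.62 ± 0.72 (limma adjusted p = 6.6e-05).

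Gata4, a partner GATA factor that follows GATA6 in the blastocyst, had its high levels earlier. It was at 4.73 and 6.45 TPM in oocyte and at 4.86 and 2.91 in 1-cell, then at 32.3 and 27.3 in 2-cell and 30.03 and 31.7 in 4-cell. It was back at 3.86 and 3.77 TPM in 8-cell and stood at 5.18 and 1.56 in blastocyst. The 4 libraries of 2-cell and 4-cell did not overlap with the 8 others, and the blastocyst, the stage at which the protein is known in primitive endoderm, was among the lowest. Gata4 rose by 2.68 ± 0.67 (log2) from 1-cell to 2-cell (limma adjusted p = 0.0097) and fell by 2.73 on the log2 scale, with an SE of 0.67, from 4-cell to 8-cell (limma adjusted p = 0.039). Without 1-cell replicate 2 the rise had an adjusted p of 0.08, and with the spread weighted by stage one of 0.06. The fall had one of 0.227 to 0.345 without either 4-cell or either 8-cell library, and of 0.065 without either 1-cell library. From 1-cell to 2-cell the median of all genes also rose, by 0.84, and after quantile normalization the rise of Gata4 was 1.47 with an adjusted p of 0.081. The log2 change of Gata4 from 4-cell to 8-cell was then -2.24, with a limma adjusted p of 0.051. Long reads of Gata4 came only from the 2-cell and 4-cell pools, with 1 transcript each. All libraries, blastocyst included, were measured against the 1 merged transcript, which covers bases 1478 to 3400 of the 3400 of the annotated mRNA.

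Sox17, the SRY-related factor that comes on as the layer forms, was the clearest blastocyst gene. It was at 0.123 and 0 TPM in 4-cell and at 0 and 0.143 in 8-cell, and reached 15.0 and 37.8 in blastocyst. Lower levels came earlier, with 1.96 and 0.106 TPM in oocyte, 0.164 and 1.48 in 1-cell and 7.26 and 1.94 in 2-cell. Both blastocyst libraries were above every other library, sperm included (7.20 and 3.32 TPM). The rise from 8-cell to blastocyst was 4.54 ± 0.71 (log2, limma adjusted p = 0.0080). Without blastocyst replicate 2 it was 3.90 with an adjusted p of 0.057, and without 8-cell replicate 1 or 2 the adjusted p was 0.142 or 0.064. Since the transcript lies in the 3′ UTR, these values do not tell whether the coding exons were joined to it.

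**Figure D2:**
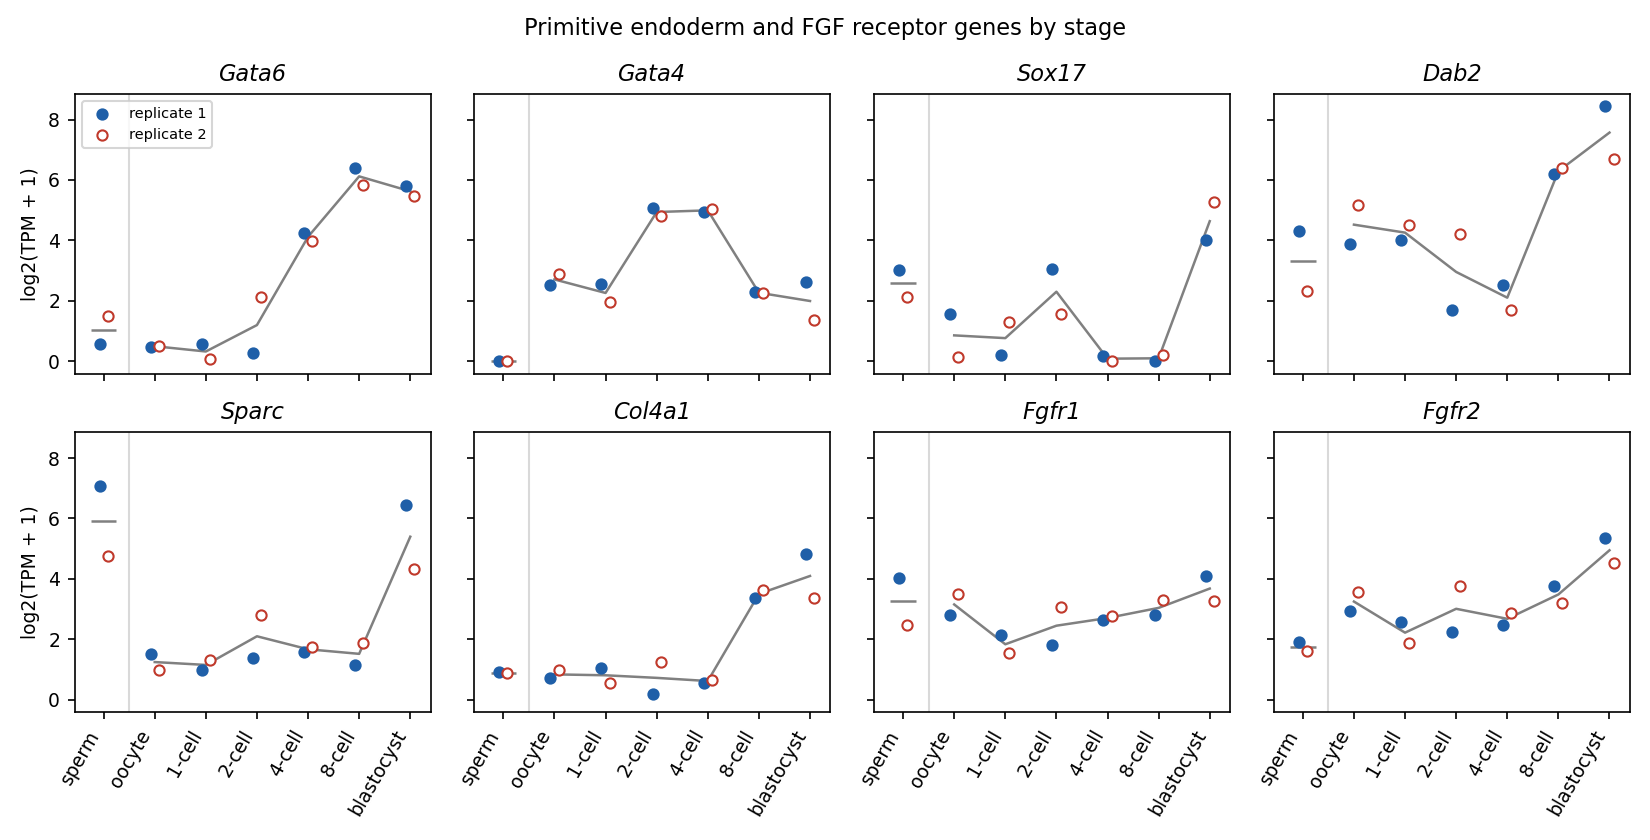
Each panel gives log2(TPM + 1) of 1 gene in every library by stage, with replicate 1 filled, replicate 2 open, and the line through the means of the stages from oocyte on. Gata4 is high only at the 2-cell and 4-cell stages, Gata6, Dab2 and Col4a1 are high at 8-cell and blastocyst, Sox17 peaks in blastocyst, Sparc is high in blastocyst and sperm, and the 2 FGF receptors vary least.

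Dab2, the adaptor for clathrin-dependent uptake, had its lowest mean at the 4-cell stage and then rose to the highest level of the set. The 2-cell and 4-cell libraries overlapped, and the change between them was not called (limma adjusted p = 0.60). It was at 13.7 and 35.0 TPM in oocyte, 15.0 and 21.9 in 1-cell, and 2.26 and 17.5 in 2-cell. It was at 4.73 and 2.22 TPM in 4-cell, 72.0 and 83.1 in 8-cell, and 347 and 103 in blastocyst. The 8-cell and blastocyst libraries were above all earlier ones. Dab2 rose by 4.19 ± 0.91 (log2) from 4-cell to 8-cell (limma adjusted p = 0.019). It stayed called under all 8 settings other than a left-out library, with adjusted p up to 0.036, and the call was lost without either 4-cell or either 8-cell library (0.0877 to 0.243). From 8-cell to blastocyst the change was 1.28 ± 0.91 with an adjusted p of 0.64, and the blastocyst libraries lay far apart.

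The rise of Dab2 was carried by the transcripts that skip the long exon. TCONS_00006815, which holds it, was at 7.81 and 15.7 TPM in oocyte, 2.39 and 0.507 in 4-cell, 3.84 and 5.90 in 8-cell, and 11.8 and 3.08 in blastocyst. TCONS_00006812, which skips it, was at 2.01 and 4.07 TPM in oocyte, 0.0714 and 0.0843 in 4-cell, 42.5 and 55.8 in 8-cell, and 259 and 69.1 in blastocyst. The first stayed within its early range while the second was above all its earlier values. TCONS_00006812 rose by 5.53 ± 0.83 (log2) from 4-cell to 8-cell (limma over 20250 transcripts, adjusted p = 0.0052), and TCONS_00006815 was called in none of the 5 transitions.

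Of the Dab2 TPM in transcripts that span the exon, 73.8% and 75.6% held it in oocyte, 58.0% and 71.7% in 1-cell, and 72.8% and 74.0% in 2-cell. The shares were 89.2% and 34.4% in 4-cell, where the summed level was low, then 6.8% and 8.3% in 8-cell and 3.8% and 3.5% in blastocyst. The 4 libraries of the last stages were below all 8 earlier ones, and the 2 blastocyst libraries, whose gene levels differed widely, had nearly the same share. The exons before exon 3 are missing from TCONS_00006815, so reads from the start of the mRNA could be assigned only to other transcripts, and what this does to the share was not tested. No test was made of the share itself.

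The other Dab2 transcripts followed either pattern. TCONS_00006811, without exons 9 and 10, went from 0.0138 and 0.882 TPM in 4-cell to 9.53 and 9.20 in 8-cell, and TCONS_00006810, which ends after exon 9 in a last exon of its own, from 1.83 and 0.577 to 13.9 and 9.85. Their limma adjusted p-values at this step were 0.083 and 0.067. TCONS_00006813, a start 3.1% of the coding bases long, had its highest mean in oocyte, at 2.97 and 13.5 TPM, and TCONS_00006814, with a new intron (chr15:6437051-6437374), stayed at or below 1.95 TPM.

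**Figure D3:**
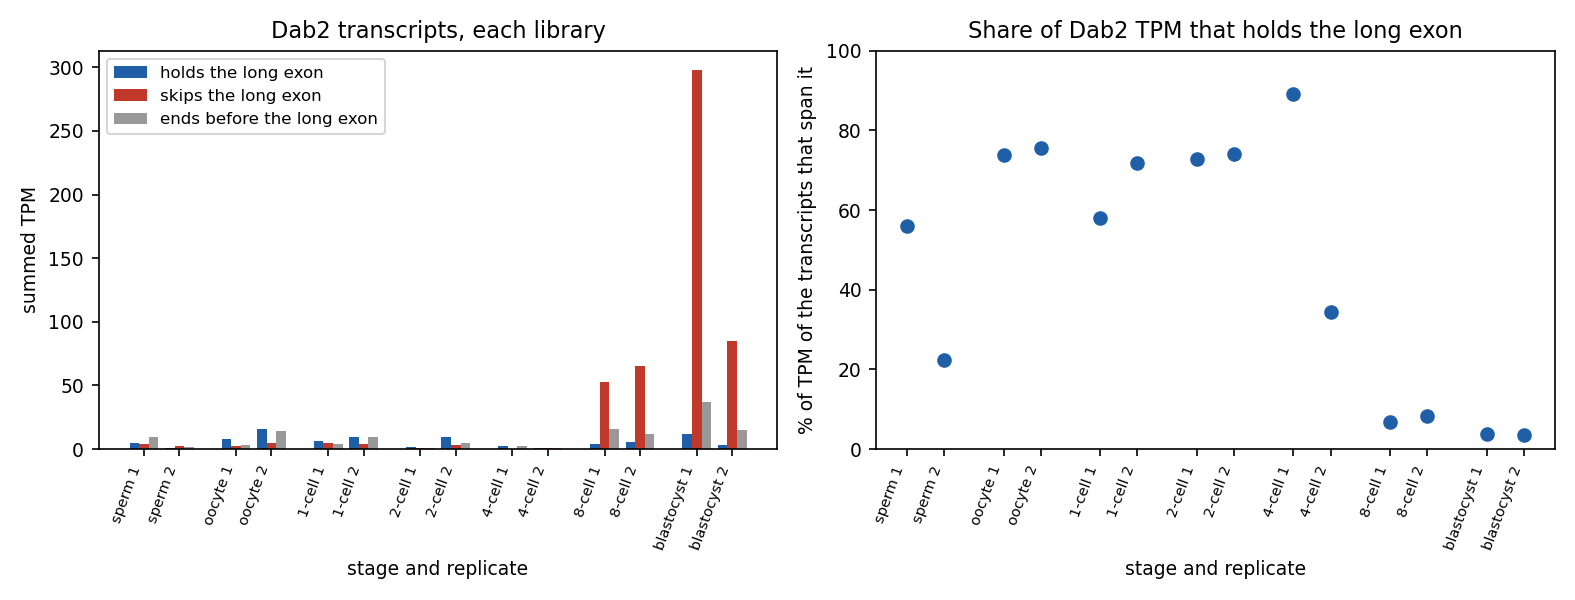
The left panel gives the summed TPM of the Dab2 transcripts that hold exon 10, skip it or end before it in each library, and the right panel the share (%) holding it among the transcripts that span it. The share is 58.0% to 75.6% in the oocyte, 1-cell and 2-cell libraries, 34.4% and 89.2% in 4-cell, and 3.5% to 8.3% in 8-cell and blastocyst, where the skipping form is the tall bar.

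Sparc, a matricellular glycoprotein that binds collagen, came on between the 8-cell stage and the blastocyst. From oocyte to 8-cell it ranged from 0.984 to 6.01 TPM over the 10 libraries, the highest being 2-cell replicate 2. It was at 86.6 and 19.3 TPM in blastocyst. Both blastocyst libraries were above all of these, by an unequal margin. Sparc rose by 3.88 ± 0.77 (log2) from 8-cell to blastocyst (limma adjusted p = 0.023). Without blastocyst replicate 1, the higher library, the rise was 2.82 with an adjusted p of 0.078, and without 8-cell replicate 1 or 2 the adjusted p was 0.315 or 0.102. Leaving out a 1-cell or a 4-cell library also moved it just past the threshold (0.0518 to 0.0586).

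Most Sparc TPM was in TCONS_00003516, which starts 117 bases after the RefSeq start. TCONS_00003517, which has an upstream first exon, was at 5.54 and 0.558 TPM in blastocyst and at or below 0.484 elsewhere in the embryo. The first took 93.6% and 97.1% of the gene in blastocyst and 61.6% and 82.5% in 8-cell, where the gene level was low.

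Sperm also held Sparc, at 133 and 26.4 TPM, and the long-read pool of sperm gave 3 Sparc transcripts against 2 in the blastocyst pool. Sparc is made by many somatic cells, and the sperm libraries held markers of such cells. The summed TPM of 3 epididymal epithelium markers was 2022 and 340.3 in sperm and at most 0.987 in any other library. That of 4 leukocyte markers was 6278 and 1549, against at most 13.3, and Dcn, a fibroblast gene, was at 211 and 31.8 TPM. Their part in the sperm level of Sparc was not tested. In blastocyst, Dcn and Col1a1 were at or below 0.107 TPM, and Pecam1, an endothelial gene, was at 12.2 and 2.87. Pecam1 was also present earlier, at 14.5 and 7.26 TPM in oocyte and 47.0 and 46.1 in 4-cell.

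Col4a1, the alpha-1 chain of basement membrane collagen, rose before Sparc. It stayed between 0.148 and 1.37 TPM in the 8 libraries from oocyte to 4-cell, and was at 9.39 and 11.4 in 8-cell and 27.3 and 9.33 in blastocyst. The groups before and from the 8-cell stage did not overlap, while 8-cell and blastocyst did. The rise from 4-cell to 8-cell was 2.89 ± 0.64 (log2, limma adjusted p = 0.022). It stayed called under all 8 settings other than a left-out library, and without either 4-cell or either 8-cell library the adjusted p was 0.121 to 0.216.

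Col4a2, whose chain joins that of Col4a1 in 1 trimer, lies head to head with it, with RefSeq starts 21 bases apart. It went from 4.17 and 1.43 TPM in 4-cell to 20.2 and 23.3 in 8-cell, a change of 2.68 ± 0.76 (log2) in 4 of 4 pairs that missed the threshold (limma adjusted p = 0.075).

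The window from 250 bases before to 50 after the RefSeq start of Col4a1 (GRCm38.p6, chr8:11312777-11313076, minus strand) shares 78 bases with that of Col4a2. It is shown with the corresponding window of Dab2 (chr15:6386498-6386797, plus strand), whose start lies 120 bases before that of TCONS_00006812, because both genes rose at the 8-cell stage.
Col4a1 promoter: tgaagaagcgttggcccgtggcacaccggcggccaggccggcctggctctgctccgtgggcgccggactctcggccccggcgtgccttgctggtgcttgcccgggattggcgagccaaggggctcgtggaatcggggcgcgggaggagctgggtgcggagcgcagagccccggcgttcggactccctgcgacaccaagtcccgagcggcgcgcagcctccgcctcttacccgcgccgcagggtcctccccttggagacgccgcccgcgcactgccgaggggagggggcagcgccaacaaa
Dab2 promoter: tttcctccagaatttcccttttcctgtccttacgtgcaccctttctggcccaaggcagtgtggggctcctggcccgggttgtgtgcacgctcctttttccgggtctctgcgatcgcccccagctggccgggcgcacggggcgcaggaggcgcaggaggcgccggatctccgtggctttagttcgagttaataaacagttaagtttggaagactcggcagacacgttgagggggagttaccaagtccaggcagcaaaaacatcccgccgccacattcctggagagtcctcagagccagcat

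Neither window held AGATAA or TGATAA (words that GATA factors bind), ACAATG or ACAAAG (SOX factors) or TATAAA (the TATA box) on either strand. Over the 32851 RefSeq windows of this length, 18.6% held AGATAA or TGATAA, 28.6% held ACAATG or ACAAAG, and 13.6% held TATAAA. Of the 7 windows found for 6 of the 10 genes, 1 held any of these words, a second Dab2 start (chr15:6299539-6299838) with TGATAA at base -179 from the start and AGATAA at base 15 after it on the minus strand. None of the deposited Dab2 transcripts began there.

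Fgfr1, the main FGF receptor of the inner cell mass, was present at every stage at a low level. It was at 5.92 and 10.4 TPM in oocyte, 3.40 and 1.89 in 1-cell, and 2.53 and 7.46 in 2-cell. It was at 5.18 and 5.88 TPM in 4-cell, 5.93 and 8.76 in 8-cell, and 16.1 and 8.61 in blastocyst. Both oocyte libraries were above both 1-cell libraries and both 8-cell libraries above both 4-cell libraries, while the other consecutive stages overlapped. None of the 5 transitions was called, the lowest adjusted p being 0.538 (1-cell to 2-cell, log2 change 0.61 ± 0.70). Only 1-cell and blastocyst of the 15 pairs of stages differed, by 1.84 ± 0.70 (log2, limma adjusted p = 0.046).

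Fgfr2, the second receptor and in the early embryo also a trophectoderm gene, was at 6.66 and 10.8 TPM in oocyte, 4.89 and 2.68 in 1-cell, and 3.76 and 12.6 in 2-cell. It was at 4.54 and 6.39 TPM in 4-cell, 12.6 and 8.22 in 8-cell, and 40.1 and 22.2 in blastocyst. Both blastocyst libraries were above all others, yet the change from 8-cell of 1.46 ± 0.73 (log2) was not called (limma adjusted p = 0.43). Blastocyst differed from 4-cell by 2.27 ± 0.73 (limma adjusted p = 0.043) and from 1-cell by 2.73 ± 0.73 (limma adjusted p = 0.0085).

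The pieces of Fgfr2 did not move together. In blastocyst replicate 1 the 3′ piece TCONS_00019283 was at 34.6 TPM and the 5′ piece TCONS_00019284 at 4.85, and in replicate 2 they were at 6.71 and 15.5. The gene level of the blastocyst thus rested on the 3′ end in one library and on the 5′ end in the other. TCONS_00019285 was at 3.25 and 1.51 TPM in 1-cell and at 0 in both 2-cell libraries (log2 change -1.71 ± 0.52, limma adjusted p = 0.030), and no other Fgfr2 piece was called in any transition.

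Counted over the set, most calls fell in the last 2 transitions. From oocyte to 1-cell limma called 0 of the 8 genes, 0 also at an unadjusted p under 0.05 and 0 under each of 20 other settings, against 2.90% of all genes tested. From 1-cell to 2-cell 1 of 8 was called (Gata4), against 29.9% of all genes, and the median log2 change of the 8 genes was 0.83 against 0.84 for all genes. From 2-cell to 4-cell 1 of 8 was called (Gata6), against 2.65%. From 4-cell to 8-cell 3 of 8 were called (Dab2 and Col4a1 higher, Gata4 lower), against 3.77%. The last step, into the blastocyst, had 2 of 8 (Sox17 and Sparc, both higher), against 1.99%. The median log2 change of the 8 genes was 0.57 at the 4-cell to 8-cell step and 0.96 at the last, where that of all genes was -0.39 and -0.24. Some of these genes had long reads only from pools of stages at which they were high. These were Sox17 (blastocyst), Sparc (blastocyst and sperm), Col4a1 (8-cell) and Gata4 (2-cell and 4-cell). What this does to the counts and medians beside those of all genes was not tested.

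Taken by transcript, 14 of the 16 passed the filter on low values, and 7 transcript changes were called over the 5 transitions. These were 0 between oocyte and 1-cell (0 of 14, 1 at an unadjusted p under 0.05; background 2.00%), 2 between 1-cell and 2-cell (28.0%), 0 between 2-cell and 4-cell (3 at an unadjusted p, 2.63%), 3 between 4-cell and 8-cell (3.13%) and 2 between 8-cell and blastocyst (2.11%). At the transcript level the Gata6 rise from 2-cell to 4-cell had an adjusted p of 0.051. The limit set by the long-read pools holds for the transcript counts too.

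**Figure D4:**
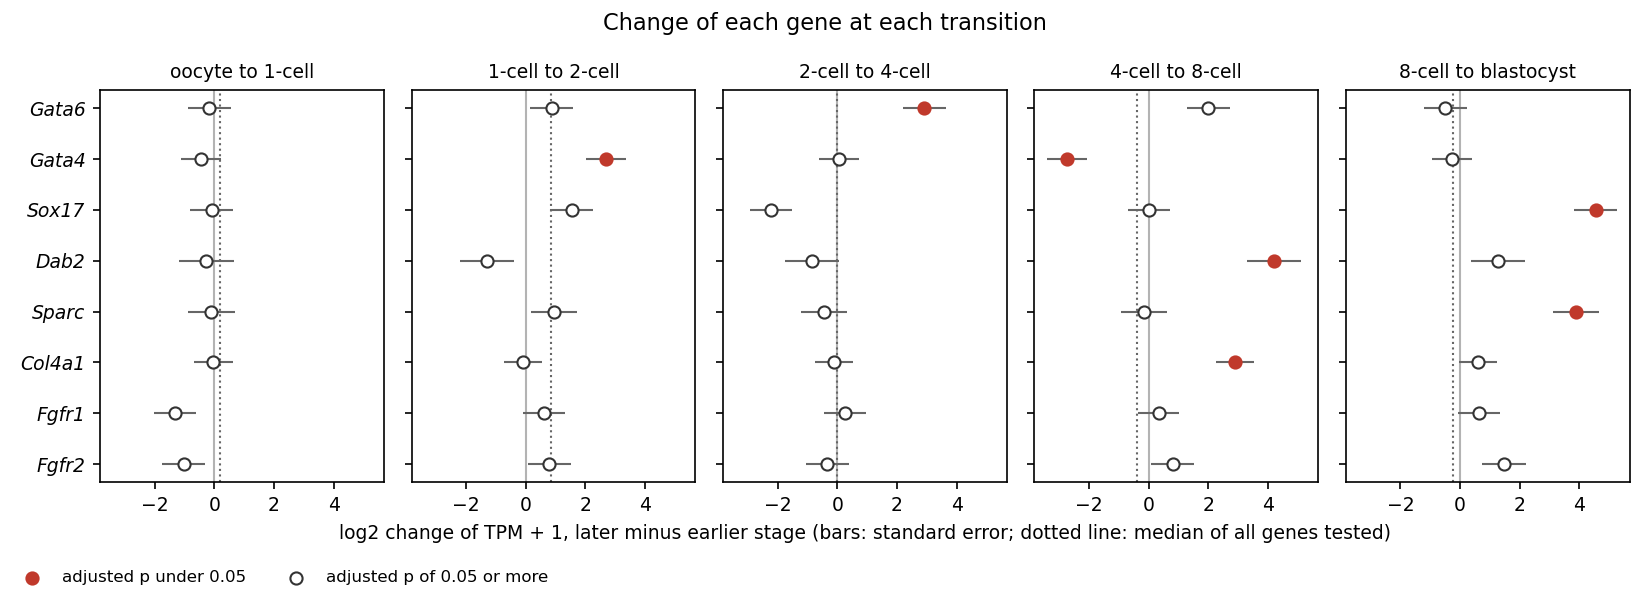
Each panel is 1 transition, the x axis the log2 change of TPM + 1 (later minus earlier stage) with its standard error, and filled points the changes with an adjusted p under 0.05. The dotted line is the median change of all 13466 genes. The filled points sit at Gata4 (1-cell to 2-cell), Gata6 (2-cell to 4-cell), Dab2, Col4a1 and Gata4 (4-cell to 8-cell), and Sox17 and Sparc (8-cell to blastocyst).

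The order of the stages differed from gene to gene. Of the 15 pairs of stages, 9 differed for Gata6, 8 for Gata4, 8 for Col4a1, 7 for Dab2, 6 for Sox17, 5 for Sparc, 2 for Fgfr2 and 1 for Fgfr1 (limma, adjusted p under 0.05 within each pair). The share of all genes that differed was counted only for the 5 pairs of consecutive stages. These counts therefore have no background beside them and do not set the genes apart from others. Gata6 ran from 8-cell through blastocyst and 4-cell to 2-cell, oocyte and 1-cell, and only 4-cell and 2-cell of these neighbours differed. For Gata4 the break lay between 2-cell and oocyte (2.23 ± 0.67, limma adjusted p = 0.018), and for Sox17 and Sparc between blastocyst and the next stage, 2-cell (2.34 ± 0.71 and 3.30 ± 0.77, adjusted p = 0.025 and 0.0067). For Col4a1 it lay between 8-cell and oocyte (2.67 ± 0.64, limma adjusted p = 0.0041). No neighbours in the order differed for Dab2, Fgfr1 and Fgfr2.

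The 2 blastocyst libraries did not hold the set in equal amounts. Replicate 1 was higher for Dab2, Sparc, Col4a1, Fgfr1, Fgfr2, Gata4 and, by a small margin, Gata6, and replicate 2 for Sox17. The 6 of 8 trophectoderm markers with a transcript summed to 10837 TPM in replicate 1 and 37618 in replicate 2, led by Krt18 at 5733 and 20177, and 5 of the 6 were higher in replicate 2, the exception being Id2 at 715 and 187. The 7 of 8 epiblast markers with a transcript summed to 495 and 333 TPM, led by Pou5f1 at 206 and 200. Most of that difference was Tdgf1, at 154 and 25.4 TPM. Nanog, which GATA6 opposes, was at 73.7 and 30.9 and Gdf3 was also higher in replicate 1, while Sox2, at 13.2 and 40.4, Klf2 and Esrrb were higher in replicate 2. The part of such differences in the values above was not tested. Levels from the long-read transcripts of the stage itself kept the difference for Dab2 (268 and 85.1 TPM) and Sparc (116 and 29.3). They also kept it for Sox17 (11.6 and 31.2). For Fgfr2 they were 26.8 and 5.55, but the only Fgfr2 transcript of the blastocyst pool matched TCONS_00019283. TCONS_00019284, the piece that was higher in replicate 2, had no counterpart there. For Gata6 the own-stage levels were 51.8 and 53.3, so its small margin was not kept.

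The wider FGF pathway was measured in part. None of the 21 other FGF ligands had a deposited transcript. Of 26 receptors and signal transducers 17 were tested, and 6 of 85 gene changes over the 5 transitions were called, all of them higher in 2-cell than in 1-cell, a step at which 25.3% of all genes were called higher. At that step the median log2 change of the 17 was 1.61, against 0.84 for all genes. The 4 largest were Hras, a RAS GTPase, from 4.50 and 7.06 to 72.1 and 103 TPM (3.71 ± 0.77), Sos1, which loads RAS with GTP (3.07 ± 0.69), Map2k2, or MEK2 (2.89 ± 0.95), and Klb, a co-receptor of endocrine FGFs (2.60 ± 0.61). Limma adjusted p-values of these 4 were 0.0036 to 0.036.

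Among the other receptors, Fgfr3 was at 0 TPM in all oocyte and 1-cell libraries, 11.4 and 12.6 in 8-cell, and 2.51 and 0.457 in blastocyst, with no transition called. Map2k1, or MEK1, the kinase that activates ERK, was at 253 and 905 TPM in oocyte and 39.2 and 52.9 in blastocyst, and no single transition of it was called.

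Of 18 ERK targets and feedback inhibitors 9 were tested, and 6 of 45 gene changes were called. These were 4 of 9 from 1-cell to 2-cell, against 29.9% of all genes, 1 of 9 from 2-cell to 4-cell, against 2.65%, and 1 of 9 from 4-cell to 8-cell, against 3.77%. Etv5 (3.51 ± 0.61), Dusp6 (3.33 ± 0.68), Myc (2.66 ± 0.73) and Ier3 (2.22 ± 0.65) rose from 1-cell to 2-cell (log2, limma adjusted p = 0.0012 to 0.022), and Egr1 fell by 2.75 from 2-cell to 4-cell (limma adjusted p = 0.026). Spry4, an inhibitor of receptor signaling, was at 133 and 253 TPM in oocyte, 1396 and 656 in 1-cell, 299 and 1705 in 2-cell, 112 and 133 in 4-cell, and 3.74 and 4.48 in 8-cell. It fell by 4.59 on the log2 scale from 4-cell to 8-cell (limma adjusted p = 0.0068), the step at which Dab2 and Col4a1 rose. From 8-cell to blastocyst no gene of either list was called, while Dusp6 went from 2.54 and 4.51 to 11.7 and 29.9 TPM.

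Collagen IV needs helpers and partners, and 18 of 21 basement membrane and collagen assembly genes were tested, with 9 of 90 changes called. By transition these were 1 of 18 (oocyte to 1-cell, against 2.90% of all genes), 3 of 18 (1-cell to 2-cell, 29.9%), 0 (2-cell to 4-cell, 2.65%), 2 (4-cell to 8-cell, 3.77%) and 3 (8-cell to blastocyst, 1.99%). Serpinh1, or HSP47, the collagen chaperone, was at 0 and 0.562 TPM in 8-cell and 131 and 356 in blastocyst (7.44 ± 0.76, limma adjusted p = 8.2e-04). Lama1, the laminin alpha-1 chain, rose at the same step by 3.98 ± 0.66 and Plod2, a lysyl hydroxylase, by 2.12 ± 0.48 (limma adjusted p = 0.01 and 0.041). Plod2 (1.93 ± 0.48) and Lama5 (3.28 ± 0.83) had risen from 4-cell to 8-cell with Col4a1 (limma adjusted p = 0.043 and 0.045). Earlier, P4ha2 (3.43 ± 0.82), a prolyl hydroxylase, and Plod3 (2.76 ± 0.54) rose from 1-cell to 2-cell, Lamb1, the laminin beta-1 chain, fell by 3.62 there, and Dag1, or dystroglycan, fell by 2.85 from oocyte to 1-cell (limma adjusted p = 0.0023 to 0.049).

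Lamb1 was thus an oocyte and 1-cell transcript (136 to 354 TPM in 3 of 4 libraries, 54.1 in 1-cell replicate 2) and was at 52.1 and 43.2 TPM in blastocyst. Its partner Lamc1, the gamma-1 chain, was at 7.39 and 9.23 TPM in 8-cell and 57.8 and 11.8 in blastocyst, and so was higher in blastocyst replicate 1, as Sparc and Col4a1 were.

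**Figure D5:**
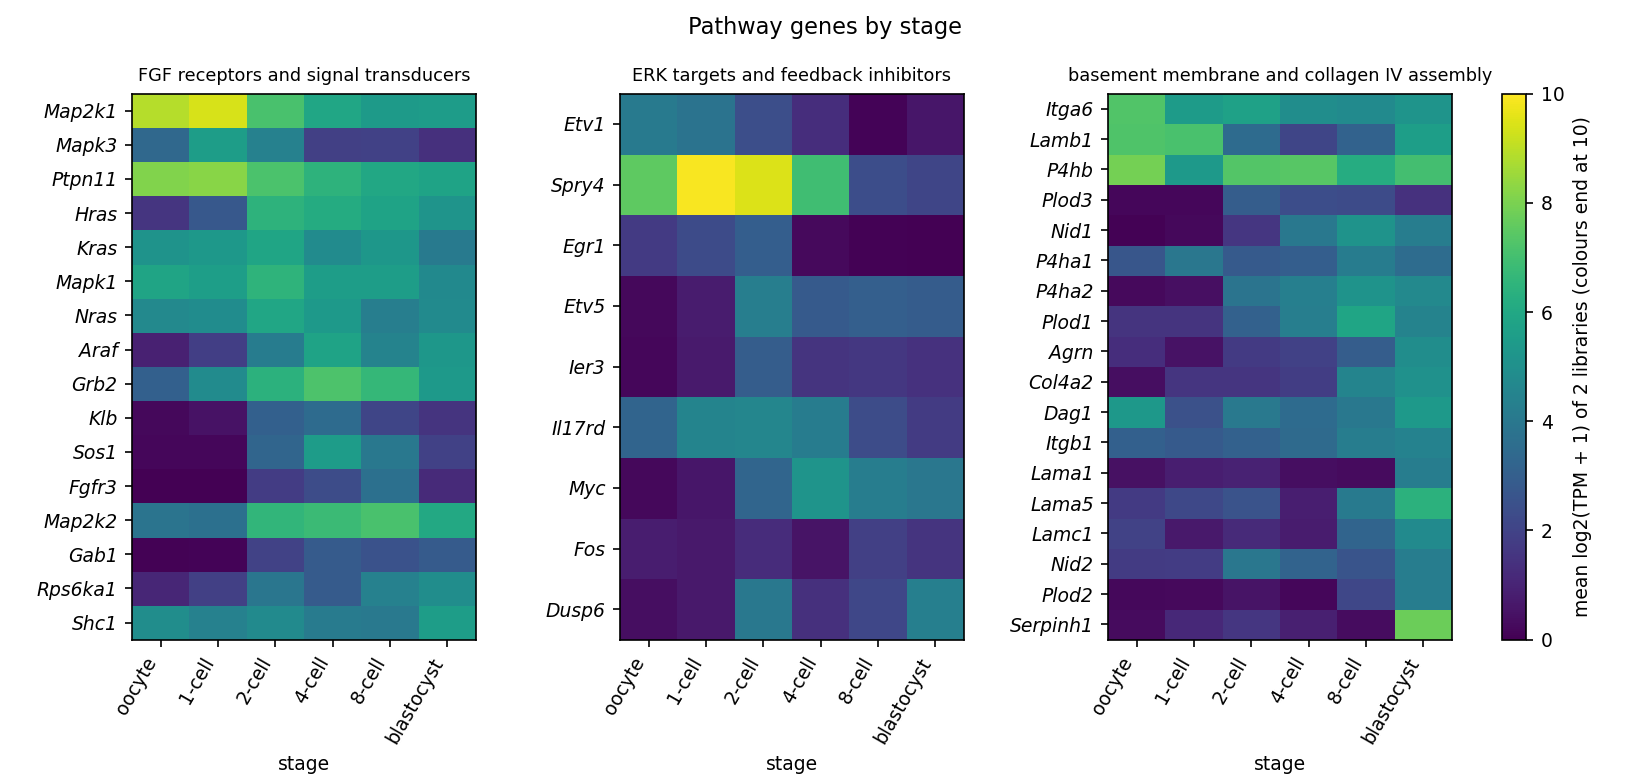
Colour gives the mean log2(TPM + 1) of the 2 libraries of each stage for measured genes of 3 lists, ordered by the stage of their highest level. In the left panel Map2k1 is brightest in oocyte and 1-cell, in the middle panel Spry4 is bright to the 4-cell stage and dark from 8-cell on, and in the right panel Serpinh1 and Lama1 are brightest in blastocyst.

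Other genes of the endoderm were sparse. Of 11, 5 had a transcript, and Sox7, Foxa2, Hnf4a, Amn, Ttr and Afp had none. Lrp2, or megalin, a receptor that DAB2 binds, rose from 0.461 and 0.456 TPM in 4-cell to 13.8 and 15.9 in 8-cell (3.44 ± 0.75, limma adjusted p = 0.019). Apoa1, an apolipoprotein, rose at the same step by 4.43 ± 0.76 (limma adjusted p = 0.0046). Lrp2 was at 119 and 20.4 TPM in blastocyst, again higher in replicate 1, and Apoa1 at 101 and 430, higher in replicate 2. Of 5 PDGF ligands and receptors only Pdgfa, a ligand of PDGFRA, had a transcript, and it rose by 2.83 ± 0.84 from 1-cell to 2-cell (limma adjusted p = 0.023).

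Genes whose levels ran most like each member over the 12 libraries from 6 stages are given by Pearson r of log2(TPM + 1), as a description over libraries that share stages. For Gata6 they were Plcd1 (0.98), Cebpzos (0.98) and Fbp2 (0.98), for Gata4 the unassigned locus XLOC_005634 (0.96), Rab43 (0.95) and Duxbl2 (0.94), and for Sox17 Cln6 (0.96), Rcn1 (0.92) and Cyb5r3 (0.91). For Dab2 they were Ppp4r1 (0.96), Tmem9 (0.94) and Gm9536 (0.93), for Sparc 2310030G06Rik (0.98), Slc15a2 (0.98) and Vwf (0.98), and for Col4a1 Serpinb9b (0.99), Cryab (0.98) and Lrp2 (0.98). For Fgfr1 they were Dnmt3b (0.92), Cdh1 (0.90) and Leprot (0.89), and for Fgfr2 they included Ank (0.93) and Lamc1 (0.92). All but the 3 of Gata4 were highest in blastocyst.

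Marker sums set sperm, oocyte and blastocyst apart, but not every stage. The trophectoderm sum was 10837 and 37618 TPM in blastocyst and at most 813 in any other library. The epiblast sums overlapped between 8-cell (245.8 and 333.4 TPM) and blastocyst (495.5 and 332.6). The 7 oocyte markers summed to 5152 and 16686 TPM in oocyte and to 14.3 and 0.706 in blastocyst, led in oocyte by Gdf9. Of the trophectoderm genes Id2 rose from 1-cell to 2-cell, Gata3 and Krt8 were higher in 8-cell than in 4-cell, and Krt18, Krt8, Id2 and Cdx2 in blastocyst than in 8-cell, and the epiblast markers Klf2, Tdgf1 and Gdf3 rose at 2-cell, 4-cell and 8-cell. Klf2 did not stay high, with a mean of 142 TPM in 4-cell and 17.3 in blastocyst. The 5 sperm markers summed to 14002 and 20767 TPM in sperm and at most 17.0 elsewhere, and none of the 7 cumulus and granulosa markers had a transcript.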

How the data were processed

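Smart-seq2 cDNA of 14 short-read libraries was sequenced on Illumina and 7 stage pools on PacBio. The authors' processing notes name GSNAP, STAR, Cufflinks, Salmon and mm10. The deposited unit is TPM, estimated by the authors in Salmon against the transcripts merged from the long reads. The study lists total reads for each library, which were not used here, and the reads behind each TPM value are unknown.

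Transcripts were assigned to genes of GENCODE vM21 by same-strand exon overlap, and TPM was summed per gene. Genes with at least 1 TPM in at least 2 of 12 libraries were tested with limma 3.58.1 (R 4.3.3, with a trend) on log2(TPM + 1), 2 libraries a stage from oocyte to blastocyst, with Benjamini-Hochberg adjustment within each comparison. Fold changes on this scale understate those of low genes. Sperm was described only. The fit was tested on simulated data with the spread of each stage: it recovered nearly all large changes, missed most smaller ones, and made false calls above the nominal rate at the steps into and out of the 2-cell stage, whose spread is widest. Promoters are from RefSeq (GRCm38.p6).

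The 10 genes and all lists were chosen with earlier results of these data known. Named were all members and their transcripts, up to 4 genes of each list in each transition with the largest change among those called in the same direction in 4 of 4 library pairs, the 3 genes most alike to each member, and the highest marker at each stage, except for items that are not reported here. Fgfr3, Col4a2, Map2k1, Lamc1, Nanog, Sox2, Esrrb, Dcn and Col1a1 were added after their values were seen. Alternatives were a pseudocount of 0.1, no filter or one of 5 TPM, quantile normalization, a fit to the 4 libraries compared, a replicate block, spread weighted by stage, at least 1 shared annotated intron, own-stage transcripts, and leaving out each library.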

Additional observations from a re-analysis of the deposited data

Results flagged for a closer look

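Sparc in sperm stood out among data that no comparison used. The lower of the 2 sperm libraries was at 26.4 TPM, above every library from oocyte to 8-cell, where the highest value was 6.01 TPM. Leukocyte, epididymal and fibroblast markers were high in the same sperm libraries, with Lyz2 at 6151 and 1519 TPM, Crisp1 at 2006 and 335 and Dcn at 211 and 31.8. Their part in the Sparc level was not tested.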

How the results depend on the processing

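With 2 libraries a stage, most calls depended on single libraries, and the causes were not tested. Against the 1 gene called from 1-cell to 2-cell, 0 were called with only the 4 libraries of the transition or with spread weighted by stage (0 to 3 when leaving out each library). Against 1 from 2-cell to 4-cell, 0 were called with a pseudocount of 0.1, no filter, only the 4 libraries, the replicate block or spread weighted by stage (0 to 2). Against 3 from 4-cell to 8-cell, leaving out each library gave 0 to 4. The Gata4 fall at this step was not called with a pseudocount of 0.1 or with quantile normalization (limma adjusted p = 0.062 and 0.051). Against 2 from 8-cell to blastocyst, 1 was called with a pseudocount of 0.1 and 0 with only the 4 libraries (0 to 2). Member transcripts called went from 7 to 13 with quantile normalization and 11 with weighted spread (2 to 12), FGF receptors and transducers from 6 to 10 with weighted spread (1 to 9), and ERK targets from 6 to 3 to 10 when leaving out libraries. Basement membrane calls went from 9 to 15 with quantile normalization or weighted spread, and to 5 with only the 4 libraries or the replicate block (4 to 18). Replicate numbers showed no consistent pairing of the libraries, with correlations of deviations of both signs, from -0.494 to 0.442. A shared batch under other numbering was not tested. Replicate labels of the 8-cell libraries conflicted between fields, and those of the titles were used. Under the replicate block Gata6 from 2-cell to 4-cell had an adjusted p of 0.084 and Gata4 from 4-cell to 8-cell one of 0.07 (limma).

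Mean TPM was also taken from own-stage transcripts and with at least 1 shared annotated intron, and 7 values moved by more than the SD of their libraries. With own-stage transcripts the mean of Gata4 in 2-cell was 50.5 against 29.8 TPM, and that of Fgfr2 in 8-cell 1.80 against 10.4. In both cases the transcripts compared differed. The Gata4 transcript of the 2-cell pool was a single exon of 935 bases, and the merged one has 1929 bases. The 8-cell pool held only the Fgfr2 piece that matches TCONS_00019284, whose merged mean in 8-cell was 2.35 TPM. No called change reversed. Quantile normalization turned the uncalled log2 changes of Gata6 (-0.32), Sparc (-0.61), Fgfr1 (-0.90) and Fgfr2 (-0.63) from 1-cell to 2-cell, Gata4 from 8-cell to blastocyst (0.083), Sparc from 4-cell to 8-cell (0.37) and Col4a1 from 2-cell to 4-cell (0.075, and 0.068 with a pseudocount of 0.1).

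Leaving out single libraries turned other uncalled changes. From oocyte to 1-cell the ranges were -0.41 to 0.062 for Gata6, -0.80 to 0.62 for Sox17, -0.91 to 0.38 for Dab2, -0.35 to 0.16 for Sparc and -0.29 to 0.23 for Col4a1. From 1-cell to 2-cell they were -0.042 to 1.79 for Gata6, -0.61 to 0.44 for Col4a1 and -0.017 to 1.25 for Fgfr1. From 2-cell to 4-cell they were -0.064 to 0.17 for Gata4, -2.11 to 0.40 for Dab2, -1.14 to 0.28 for Sparc, -0.63 to 0.42 for Col4a1, -0.38 to 0.89 for Fgfr1 and -1.09 to 0.43 for Fgfr2. From 4-cell to 8-cell they were -0.084 to 0.11 for Sox17 and -0.52 to 0.22 for Sparc, and from 8-cell to blastocyst -0.91 to 0.36 for Gata4 and -0.14 to 1.32 for Col4a1. Gata6 from 4-cell to 8-cell was called with quantile normalization (2.68, limma adjusted p = 0.012), with only the 4 libraries (0.022), with weighted spread (4.9e-04) and without 2-cell replicate 1 or 2 (0.037 or 0.036). Dab2 was called lower from 1-cell to 2-cell with quantile normalization (-2.43, limma adjusted p = 0.031) and without 2-cell replicate 2 (-2.55, 0.049). Without that library Sox17 was also called from 1-cell to 2-cell (2.28, limma adjusted p = 0.036) and from 2-cell to 4-cell (-2.96, 0.033). The 2-cell libraries differed most, with a median SD of 1.03 on the log2 scale against 0.204 to 0.644 at the other stages. Oocyte markers summed to 107 TPM in 2-cell replicate 1 and 1259 in replicate 2. The trophectoderm sum (244 and 186 TPM) and the epiblast sum (111 and 68.0) were higher in replicate 1. The part of these differences in the 2-cell values was not tested.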
